A study of Mus musculus with 6 samples.

Results

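Glutamate receptor and postsynaptic scaffold genes were examined in the cortex of *Gsk3:Neurod6* mutant embryos and their controls. The group was a list of 42 genes named by their roles: AMPA, NMDA, kainate and metabotropic glutamate receptors, scaffold proteins of the postsynaptic density, postsynaptic adhesion proteins and calcium-calmodulin signaling proteins. Of these, 41 had a row of the array with a single gene symbol, and they are set against 22180 genes tested in all. *Grin1*, the obligatory NMDA receptor subunit, was not analysed here. For a gene with more than 1 row, the row with the highest mean of the 6 arrays was taken.

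RNA of 3 mutant and 3 control embryos of embryonic day 18 was hybridized, 1 embryo to an array, to the Affymetrix Mouse Gene 2.0 ST design. Mutants were *Gsk3a* -/- *Gsk3b* loxp/loxp embryos with *Neurod6-Cre* (also called *Nex-Cre*), whose Cre is made in intermediate progenitors and in early excitatory neurons. Controls had the same *Gsk3a* -/- *Gsk3b* loxp/loxp genotype with no Cre, so both groups lacked *Gsk3a* and neither is wild type. The labels name presumptive somatosensory cortex and the methods dorsal cortex, a tissue that also holds interneurons and glia in which this Cre is not active. Embryos of 2 litters were used without a record here of which embryo belonged to which litter, so a part of litter in any difference was not tested. Because bulk tissue was measured, fewer cells of a type and less RNA per cell cannot be told apart. Embryos are named by the replicate numbers of the labels, 5, 6 and 7 for mutants and 2, 3 and 4 for controls.

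Glutamate is the main excitatory transmitter of the cortex. AMPA and kainate receptors open on binding it, NMDA receptors admit calcium when the membrane is also depolarized, and metabotropic receptors act through G proteins. At the spine, scaffolds of the DLG, DLGAP, SHANK and HOMER families hold these receptors in a layered density, neuroligins and LRRTM proteins bridge the cleft to presynaptic neurexins, and calmodulin passes the calcium signal to kinases. At late embryonic stages few spines exist, and many of these genes are already transcribed in migrating and newly settled neurons.

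The arrays had much the same distribution, with medians of 7.40 to 7.45 on the log2 scale, and pairs of arrays correlated across genes at 0.994 to 0.996. The gene-level row of *Gsk3b*, which summarizes all exons, lay at 11.99 to 12.14 in mutants and 11.99 to 12.03 in controls, and does not read the floxed exon apart from the others. *Neurod6*, the gene whose locus drives Cre, lay at 11.21 to 11.32 in mutants and 11.81 to 11.91 in controls. All 8 measured markers of excitatory projection neurons lay above 7.35, used here as the background level because 95% of the olfactory, vomeronasal and taste receptor genes were dimmer. Mutant 6 stood apart for *Xist*, at 11.89 where the other 5 arrays had 5.77 to 6.18. Among the members, 40 lay above the background level and *Grm8* below it.

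No member passed an adjusted p of 0.05 in limma's moderated test, and none differed by 1.5-fold. Even so, 34 of 41 members (82.9%) had a higher mean in mutants and 7 a lower one, where 49.7% of all genes tested and 48.8% of genes above the background level had a higher mean. The median difference was 0.05 on the log2 scale, with a range of -0.23 to 0.44, beside -0.0007 over all genes. Leaving out 1 array gave medians of 0.04 (without control 2) to 0.09 (without mutant 5), with 0.08 without control 3. With each array centred on its median, 70.7% of members had a higher mean beside 45.6% of all genes. Without mutant 6 these shares were 61% beside 48.5%, and without control 2 they were 65.9% beside 48.5%. The lowest adjusted p of any member was 0.567 in limma, and a test per gene without moderation called no member and no other gene. Over all genes 1 passed, which is 0.00451% of those tested, and 26 differed by 1.5-fold (0.117%). The 95% confidence interval of the difference, which is not adjusted for the number of genes, lay within 1.5-fold in both directions for 38 members. The exceptions were *Nrgn*, *Grm7* and *Grm5*, whose intervals ran past 1.5-fold on the higher side only.

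At an unadjusted p under 0.05, 7 members were higher in mutants (17.1%, beside 3.51% of all genes): *Nrgn*, *Grm7*, *Grm5*, *Grik1*, *Gria4*, *Grik3* and *Shank2*. The 3 that were lower were *Lrrtm1*, *Grm2* and *Nlgn1* (7.32%, beside 3.81% of all genes). Mutant values lay above every control value for 13 members (31.7%, beside 6.34% of all genes) and below every control value for 3 (7.32%, beside 6.93% of all genes). The share of lower members without overlap was thus near that of all genes, while the share of higher members was above it. These shares describe a list chosen with earlier results of these arrays known, and its genes are not independent of each other.

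**Figure D1:**
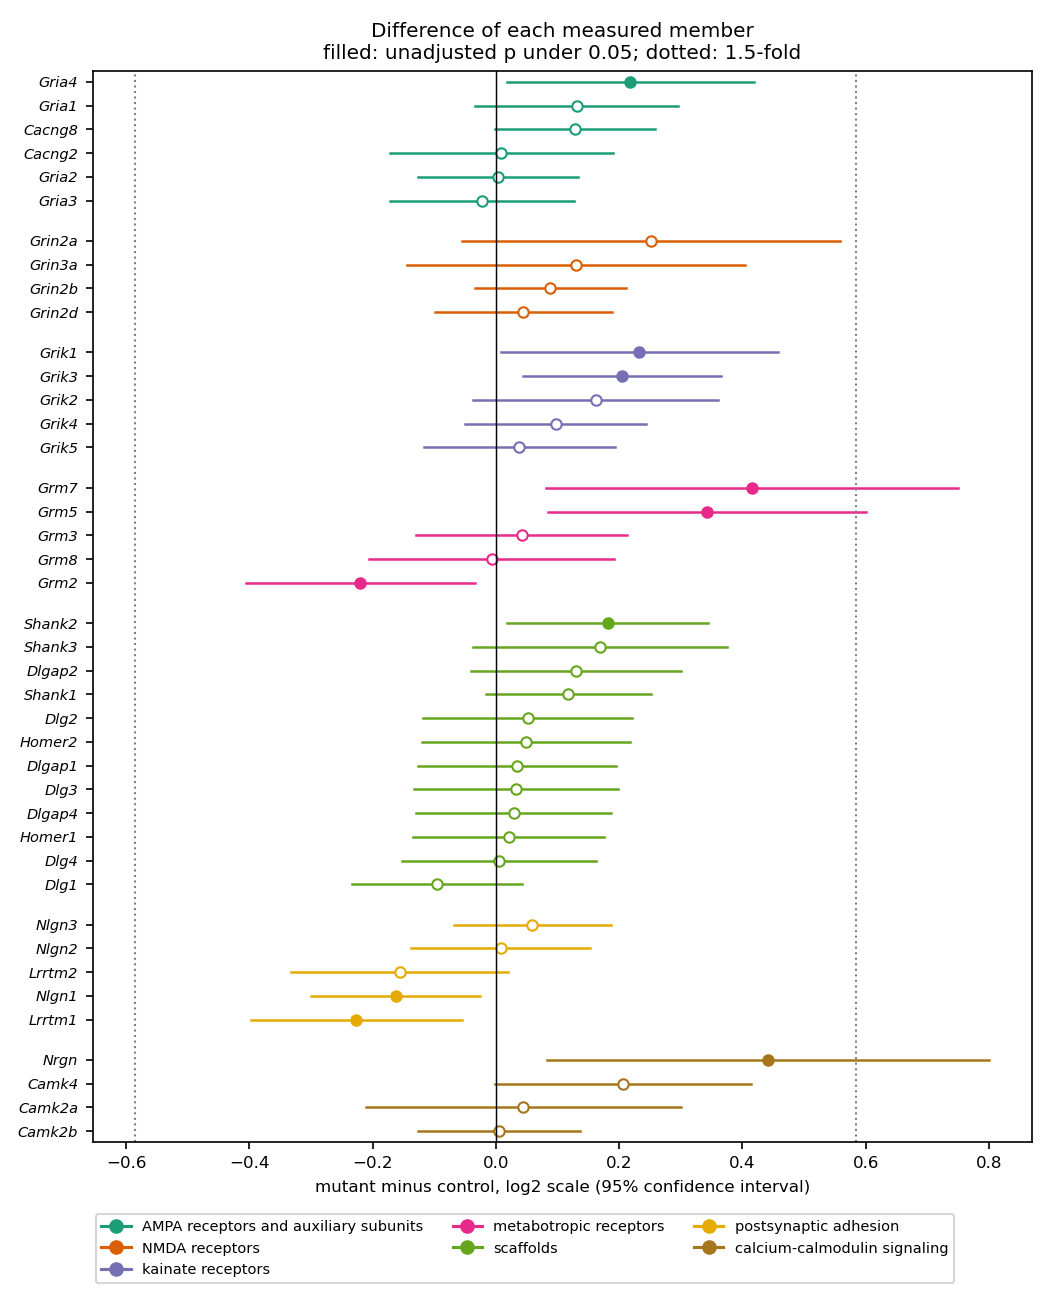
Difference between mutant and control means on the log2 scale (horizontal axis) for each of 41 measured members (rows), colored by role, with the 95% confidence interval of limma. Filled points are the 10 members with an unadjusted p under 0.05, dotted lines mark 1.5-fold, and 34 of the points lie right of 0.

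Promoter sequence is shown for the 5 members with the largest differences among those that had an unadjusted p under 0.05 and an entry in the promoter table, which held 7 of these 10 genes. For *Grm7* 1 of 2 windows is shown. The windows are the 250 bases before the RefSeq start of each gene in GRCm38.p6, written from 5′ to 3′ on the strand of the gene. Capitals mark a match to one of the 4 motifs searched on both strands: TTCAGCACC from the RE1 element bound by the neuronal gene repressor REST, CAGATG bound by NeuroD factors, TGACG from the cyclic AMP response element, and CTTTGAT of the TCF and LEF factors that act downstream of β-catenin.
Nrgn, chr9:37552746-37552995, minus strand: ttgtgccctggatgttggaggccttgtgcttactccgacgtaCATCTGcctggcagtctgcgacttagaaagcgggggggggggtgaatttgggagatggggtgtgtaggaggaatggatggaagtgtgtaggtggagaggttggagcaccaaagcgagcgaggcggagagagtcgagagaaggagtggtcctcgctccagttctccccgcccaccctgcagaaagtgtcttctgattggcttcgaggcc
Grm7, chr6:110645262-110645511, plus strand: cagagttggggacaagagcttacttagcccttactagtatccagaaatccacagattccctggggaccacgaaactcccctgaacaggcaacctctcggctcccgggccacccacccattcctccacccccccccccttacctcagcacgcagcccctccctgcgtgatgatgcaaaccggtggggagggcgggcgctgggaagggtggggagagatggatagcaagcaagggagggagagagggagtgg
Gria4, chr9:4796235-4796484, minus strand: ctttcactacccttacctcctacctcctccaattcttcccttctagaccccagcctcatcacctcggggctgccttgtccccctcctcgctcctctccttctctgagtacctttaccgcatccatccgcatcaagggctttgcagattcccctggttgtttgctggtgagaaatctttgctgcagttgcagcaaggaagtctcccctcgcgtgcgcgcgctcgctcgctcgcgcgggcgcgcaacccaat
Grm2, chr9:106656110-106656359, minus strand: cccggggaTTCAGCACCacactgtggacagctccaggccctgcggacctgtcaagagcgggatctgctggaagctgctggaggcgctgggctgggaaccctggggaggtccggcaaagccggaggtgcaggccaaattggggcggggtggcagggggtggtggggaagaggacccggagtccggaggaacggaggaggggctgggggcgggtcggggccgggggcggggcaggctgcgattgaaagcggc
Lrrtm1, chr6:77242227-77242476, plus strand: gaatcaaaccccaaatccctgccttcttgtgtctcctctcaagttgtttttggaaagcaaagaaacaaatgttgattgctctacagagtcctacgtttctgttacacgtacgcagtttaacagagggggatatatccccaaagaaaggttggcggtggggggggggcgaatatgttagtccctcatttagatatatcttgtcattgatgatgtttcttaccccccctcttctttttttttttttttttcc
The window of *Grm2* held the RE1 letters, starting 242 bases before the gene, and that of *Nrgn* held the NeuroD letters as their reverse complement CATCTG, starting 208 bases before it. No match was found in the windows printed for *Grm7*, *Gria4* and *Lrrtm1*, and no printed window held more than 1 match. The RE1 letters were in 0.301% of all windows of the table and in 2 of the 43 windows of members. The NeuroD letters were in 14.4% of all windows and 2 of members, TGACG in 17.8% and 5, and CTTTGAT in 3.21% and 1. The 28 members in the table had a median GC content of 58.8% over their windows, against 52.4% over all windows. Among the printed windows, *Grm2* was the richest in GC at 71.2% and *Lrrtm1* the poorest at 42%. The motifs were chosen with the matches in view, and a match describes letters only.

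AMPA receptors carry most fast excitatory transmission, and TARP proteins (*Cacng2*, *Cacng8*) bring them to the synapse and slow their closing. Of the 6 measured members of this group, 5 had a higher mean in mutants and 1 a lower one, with a median difference of 0.07. Without mutant 7, 3 were higher and 3 lower, with a median of 0.05. All 6 were higher without mutant 5 or without control 3. *Gria4*, the subunit GluA4, lay at 10.28, 10.37 and 10.28 in mutants 5, 6 and 7, against 9.91, 10.17 and 10.20 in controls 2, 3 and 4. Every mutant lay above every control, and control 2 was the lowest array by a wide gap. The difference was 0.22 (SE 0.09, adjusted p = 0.648). *Cacng8*, TARP gamma-8, lay at 9.54, 9.58 and 9.49 in mutants and 9.39, 9.42 and 9.41 in controls, a difference of 0.13 (SE 0.06, adjusted p = 0.685). Its groups did not overlap either, and here the controls were close together. The remaining 4 had overlapping groups: *Gria1* with a difference of 0.13, *Gria2*, whose subunit keeps calcium out of the channel, with 0.0032, *Gria3* with -0.02 and *Cacng2* with 0.0084. The 95% interval of *Gria3* ran from -0.17 to 0.13, and that of *Gria2* from -0.13 to 0.13.

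NMDA receptors pair GluN1 with subunits that set their kinetics, of which GluN2B is the main one before birth and GluN2A takes over later. All 4 measured members had a higher mean in mutants, with a median difference of 0.11, and none had an unadjusted p under 0.05. Without control 2 the median was 0.06, and 3 means were higher and 1 lower. *Grin2a* lay at 8.05, 7.91 and 8.16 in mutants 5, 6 and 7, against 7.48, 7.97 and 7.91 in controls 2, 3 and 4. The groups overlapped, since mutant 6 lay below control 3, and control 2 was again far below the rest. Its difference was 0.25 (SE 0.13, adjusted p = 0.741), and 0.10 without control 2. *Grin2b* lay at 11.42, 11.42 and 11.41 in mutants and 11.32, 11.31 and 11.35 in controls, the tightest replicates of the group. The groups did not overlap, with a difference of 0.09 (SE 0.05, adjusted p = 0.779) and an interval of -0.03 to 0.21. *Grin2d* and *Grin3a* differed by 0.04 and 0.13 with overlapping groups, and *Grin3a* by -0.01 without control 2. A second row for *Grin2d*, below the background level, gave -0.04, and the mean of both rows 0.0038.

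Kainate receptors modulate transmitter release and excitability, and *Grik1*, *Grik2* and *Grik3* encode the subunits that form channels on their own while *Grik4* and *Grik5* encode partners that need them. All 5 members had a higher mean in mutants, with a median difference of 0.16, which was 0.10 without control 2. *Grik3* lay at 10.91, 11.06 and 10.99 in mutants 5, 6 and 7, against 10.69, 10.79 and 10.85 in controls 2, 3 and 4. The groups did not overlap, and the difference was 0.20 (SE 0.07, adjusted p = 0.579). *Grik1* lay at 8.28, 8.36 and 8.31 in mutants and 7.90, 8.05 and 8.29 in controls, a difference of 0.23 (SE 0.10, adjusted p = 0.671). Its groups overlapped narrowly, as control 4 lay above mutant 5. *Grik4* had groups that did not overlap, with a difference of 0.10, while *Grik2* (0.16) and *Grik5* (0.04) overlapped.

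**Figure D2:**
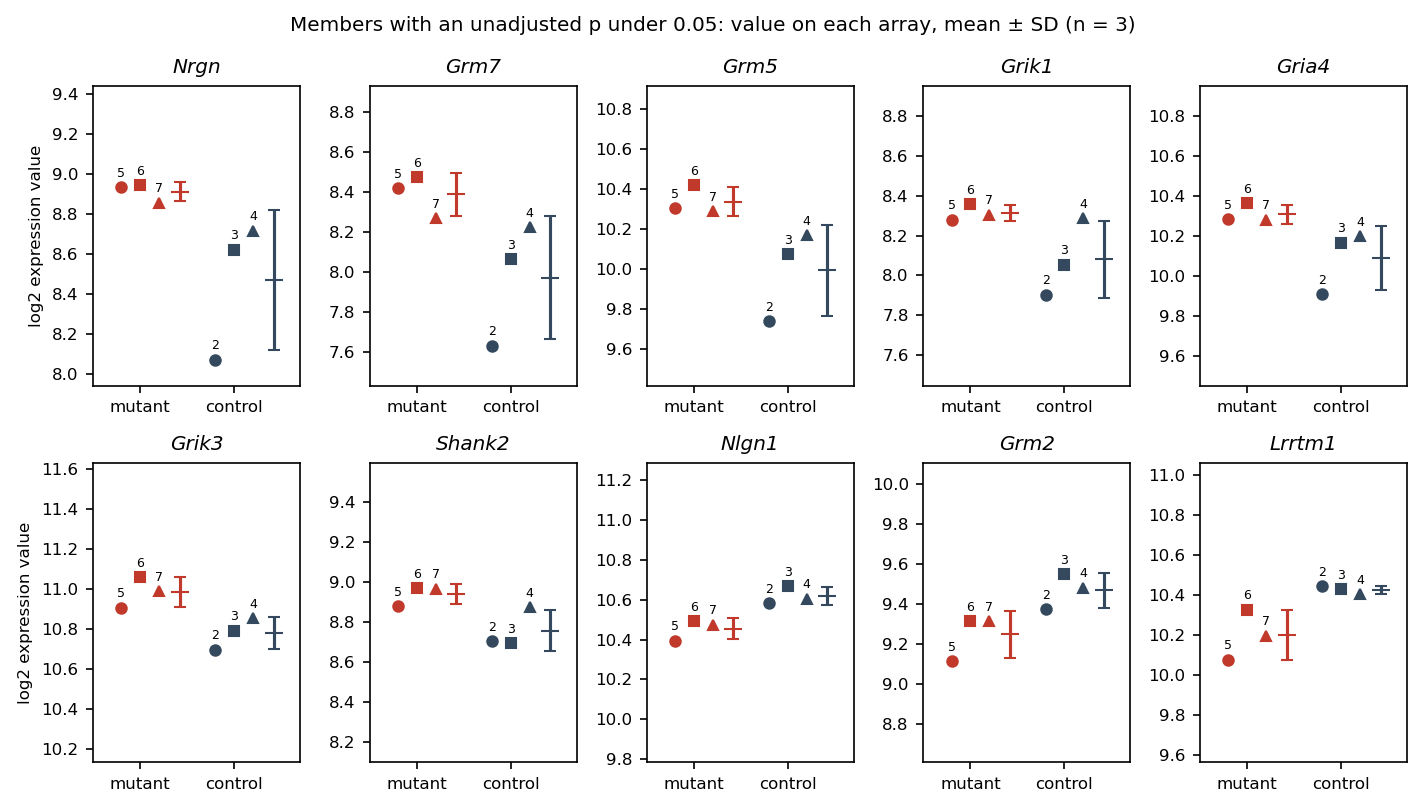
Log2 expression value on each array (vertical axes, 1 panel per gene with the same span) for the 10 members with an unadjusted p under 0.05, mutants left and controls right, numbered by replicate. The bars are the mean and SD of 3 arrays, and control 2 is the lowest array for *Nrgn*, *Grm7*, *Grm5*, *Grik1*, *Gria4* and *Grik3*.

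Metabotropic receptor genes differed in both directions, with *Grm7* and *Grm5* higher and *Grm2* lower in mutants. *Grm5* encodes the postsynaptic receptor mGluR5, which signals through Gq and binds Homer, and *Grm7* and *Grm8* encode presynaptic receptors coupled to Gi. *Grm2* and *Grm3* encode Gi-coupled receptors that lower transmitter release, *Grm3* also in glia. *Grm7* lay at 8.42, 8.47 and 8.27 in mutants 5, 6 and 7, against 7.63, 8.06 and 8.22 in controls 2, 3 and 4. The groups did not overlap, although mutant 7 and control 4 were close, and the controls spread over a wider range than the mutants. The difference was 0.42, a ratio of 1.33 (SE 0.14 on the log2 scale, adjusted p = 0.586). A second row for *Grm7* gave 8.18, 8.04 and 8.02 in mutants and 7.77, 8.07 and 7.91 in controls, a smaller difference of 0.16 with overlapping groups. *Grm5* lay at 10.30, 10.42 and 10.29 in mutants and 9.74, 10.07 and 10.17 in controls. Its groups did not overlap, with a difference of 0.34 (SE 0.11, adjusted p = 0.567).

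*Grm2* went the other way. It lay at 9.11, 9.31 and 9.31 in mutants 5, 6 and 7, against 9.37, 9.55 and 9.48 in controls 2, 3 and 4, so that every mutant was below every control. The difference was -0.22 (SE 0.08, adjusted p = 0.602). *Grm3* had overlapping groups and a difference of 0.04. *Grm8*, below the background level, had a difference of -0.0072. The group thus had 3 higher and 2 lower means and a median difference of 0.04, which became 0.19 without *Grm8*, 0.01 without control 2, 0.02 without mutant 6 and 0.11 without control 3.

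Scaffold genes showed small differences, whose direction changed with the arrays included. Of 12 members, 11 had a higher mean in mutants and 1 a lower one, and the median difference was 0.04. Without mutant 6, 5 were higher and 7 lower, with a median of -0.0070, and without control 2, 7 were higher and 5 lower. The SHANK proteins, which form the deep layer of the density, included the largest differences of the group. *Shank2* lay at 8.88, 8.97 and 8.97 in mutants 5, 6 and 7, against 8.70, 8.70 and 8.88 in controls 2, 3 and 4. Mutant 5 and control 4 were nearly level, yet the groups did not overlap, with a difference of 0.18 (SE 0.07, adjusted p = 0.645). *Shank1* lay at 10.48, 10.58 and 10.55 in mutants and 10.41, 10.39 and 10.46 in controls, with no overlap and a difference of 0.12 (SE 0.06, adjusted p = 0.723). *Shank3* differed by 0.17 with overlapping groups, and by 0.08 without control 2. A second row for *Shank3*, below the background level, gave -0.04. *Dlgap2*, which links DLG proteins to SHANK proteins, differed by 0.13 and did not overlap, and differed by 0.06 without control 2.

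The other scaffolds had smaller differences. *Dlg4*, which encodes PSD-95, had a difference of 0.0047 with an interval of -0.15 to 0.16, and *Dlg2* and *Dlg3* had 0.05 and 0.03. *Dlg1*, which encodes SAP97, was the scaffold with a lower mean in mutants, at -0.10 with overlapping groups. *Homer1* and *Homer2*, which bind mGluR5 and SHANK proteins, had 0.02 and 0.05, and *Dlgap1* and *Dlgap4* had 0.03 each. All 12 intervals of the scaffolds lay within 1.5-fold in both directions.

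Postsynaptic adhesion genes had a median difference of -0.16, with 2 higher and 3 lower means in mutants. When all 6 arrays were used, this was the only group of the 7 with a median difference below 0. Without mutant 6 the scaffold median lay below 0 too. *Lrrtm1*, a neurexin ligand of excitatory synapses, lay at 10.08, 10.33 and 10.20 in mutants 5, 6 and 7, against 10.44, 10.43 and 10.41 in controls 2, 3 and 4. All mutants lay below the controls, which were nearly identical, and mutant 5 was the lowest. The difference of -0.23 was the lowest of all members (SE 0.07, adjusted p = 0.567). *Nlgn1*, the neuroligin of excitatory synapses, lay at 10.39, 10.49 and 10.47 in mutants and 10.58, 10.67 and 10.60 in controls. Its groups did not overlap, with a difference of -0.16 (SE 0.06, adjusted p = 0.605). *Lrrtm2*, the close relative of *Lrrtm1*, also had a lower mean, with a difference of -0.16 and overlapping groups (adjusted p = 0.723). *Nlgn2*, which serves inhibitory synapses, differed by 0.0076, and *Nlgn3*, found at both kinds, by 0.06 with no overlap.

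All 4 calcium-calmodulin genes had a higher mean in mutants, with a median difference of 0.13. The median was 0.05 without control 2, 0.21 without control 4 and 0.05 when the rows of a gene were averaged. *Nrgn* encodes neurogranin, which holds calmodulin in spines until calcium enters, and had the largest difference of all members. It lay at 8.93, 8.94 and 8.86 in mutants 5, 6 and 7, against 8.07, 8.62 and 8.71 in controls 2, 3 and 4. The mutants were close together and above every control, while control 2 lay far below the other controls. The difference was 0.44, a ratio of 1.36 (SE 0.15 on the log2 scale, adjusted p = 0.586). *Camk4*, a calmodulin kinase of the nucleus, lay at 9.25, 9.31 and 9.29 in mutants and 8.88, 9.15 and 9.20 in controls. Its groups did not overlap, with a difference of 0.21 (SE 0.09, adjusted p = 0.684), which was 0.11 without control 2. A second row below the background level gave -0.11, and the mean of both rows 0.05. *Camk2a* and *Camk2b*, which encode the main kinase of the postsynaptic density, had differences of 0.04 and 0.0045 with overlapping groups.

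The higher means did not come evenly from the arrays. Control 2 was the lowest of the 6 arrays for 22 of the 41 members (53.7%), against 22.2% of genes above the background level, and mutant 6 was the highest for 23 (56.1%), against 31.3%. The 7 higher members had a median deviation from their 6-array mean of 0.08, 0.18 and 0.11 in mutants 5, 6 and 7, against -0.29, -0.09 and 0.03 in controls 2, 3 and 4. Control 4 thus lay nearest to the mutants. Without control 2, 27 members had a higher mean and 14 a lower one, with a median difference of 0.04. *Grm5*, *Grm7* and *Nrgn* then remained higher at an unadjusted p under 0.05, and the differences were 0.24 for *Nrgn*, 0.24 for *Grm7*, 0.21 for *Grm5* and 0.13 for *Gria4*. Without mutant 6, the array with high *Xist*, the differences were 0.43 for *Nrgn*, 0.37 for *Grm7* and 0.30 for *Grm5*, and no higher member had an unadjusted p under 0.05. *Lrrtm1*, *Nlgn1* and *Grm2* had one below 0.05 with either of these arrays left out. Without mutant 5, control 3 or control 4, only *Lrrtm1* of these lower members kept one. The 3 lower members had a median deviation of -0.24, -0.04 and -0.06 in mutants 5, 6 and 7. In controls 2, 3 and 4 it was 0.05, 0.13 and 0.09. The 3 X-linked members, *Gria3*, *Dlg3* and *Nlgn3*, differed by -0.06, -0.02 and 0.04 without mutant 6.

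**Figure D3:**
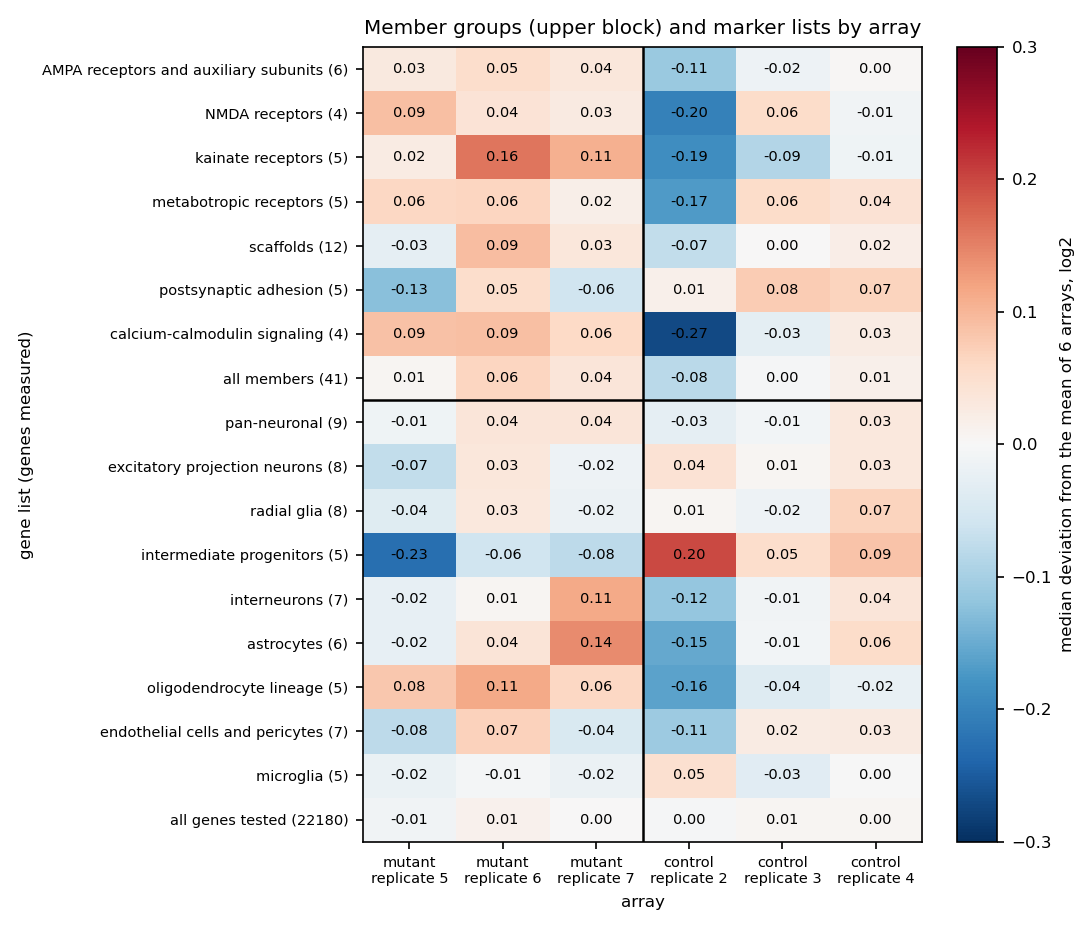
Median deviation from the 6-array mean on the log2 scale (color and printed number) for the member groups and cell type marker lists (rows) on each array (columns), mutants left and controls right. Control 2 is the lowest array for every member group except postsynaptic adhesion, with calcium-calmodulin signaling at -0.27. It is also the lowest for pan-neuronal, interneuron, astrocyte, oligodendrocyte lineage and endothelial markers. It is the highest for intermediate progenitor markers, at 0.20, and for excitatory projection neuron and microglia markers.

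Marker lists of some other cell types also differed in their means. No marker passed an adjusted p of 0.05 in the main limma fit, where *Neurod6* had 0.098. Over the main fit and the alternatives, the adjusted p of *Neurod6* ran from 0.000138 to 0.614. All 5 markers of intermediate progenitors had a lower mean in mutants, with a median of -0.20, and their mean level was 8.89 to 9.07 in mutants and 9.15 to 9.28 in controls. Among them *Neurog2* differed by -0.29 and *Eomes* by -0.20, and all 5 lay above the background level. All 5 markers of the oligodendrocyte lineage had a higher mean, with a median of 0.14, which was 0.10 without control 2. Their level was 8.23 to 8.29 in mutants and 8.03 to 8.17 in controls, with *Sox10* below the background level. Of 6 astrocyte markers 5 had a higher mean, with a median of 0.14, which was 0.11 without control 2. Their level was 8.29 to 8.44 in mutants and 8.20 to 8.35 in controls, with *Aqp4* and *Gjb6* below the background level. The pan-neuronal markers, 6 higher and 3 lower of 9, had a median of 0.07 and a level of 11.09 to 11.18 in mutants and 10.98 to 11.12 in controls, and none had an unadjusted p under 0.05. Their median was 0.03 without control 2 and 0.03 without mutant 6. Markers of excitatory projection neurons ran the other way, with 2 higher and 6 lower of 8 and a median of -0.04. Without mutant 5, 4 were higher and 4 lower, with a median of -0.0012. Their level was 10.47 to 10.55 in mutants and 10.58 to 10.61 in controls, with all 8 above the background level. That level includes *Neurod6*, the gene whose locus drives Cre, which differed by -0.60. The mean level of the other markers of this list overlapped between mutants and controls. Their differences ran from -0.11 for *Slc17a6* to 0.10 for *Bcl11b*. Of 8 radial glia markers 4 had a higher and 4 a lower mean, with a median of 0.0060. Their level was 10.41 to 10.48 in mutants and 10.43 to 10.52 in controls, all above the background level. Without control 2, 2 of these markers were higher and 6 lower, with a median of -0.03. At an unadjusted p under 0.05 *Pax6* (-0.20) and *Hes1* (-0.21) were lower. The part of these cell types in the differences of the members was not tested. *Neurod6* lies on chromosome 6 together with *Grm7*, *Lrrtm1*, *Grin2b* and *Grm8*, whose differences were 0.42, -0.23, 0.09 and -0.0072. The part of the genotype around the Cre locus was not tested.

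Other genes of the glutamate synapse, 66 listed and 57 measured, had 38 higher and 19 lower means, 66.7% higher beside 49.7% of all genes, and a median difference of 0.04, which was 0.02 without control 2. At an unadjusted p under 0.05, 7 were higher (12.3%, beside 3.51% of all genes) and 1 lower (1.75%, beside 3.81%), and none passed an adjusted p of 0.05 in limma. The higher ones were *Slitrk3* (0.33), *Camkv* (0.23), *Grid1* (0.21), *Gap43* (0.20), *Il1rapl1* (0.20), *Lrrc7* (0.18) and *Nrxn3* (0.17), and the lower one was *Homer3* (-0.13). *Camkv*, a pseudokinase that binds calmodulin, lay at 11.16, 11.24 and 11.21 in mutants 5, 6 and 7, against 10.98, 10.97 and 10.96 in controls 2, 3 and 4. Its groups were clearly apart, and control 2 was no lower than the other controls. All 10 measured genes of the other synaptic adhesion list had a higher mean, 9 of them without control 2 or without mutant 6, with a median of 0.13 that was 0.08 without control 2, where the postsynaptic adhesion members *Nlgn1*, *Lrrtm1* and *Lrrtm2* had lower ones. The 16 measured genes of receptor auxiliary and trafficking proteins had a median of 0.01, with 9 higher and 7 lower means.

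**Figure D4:**
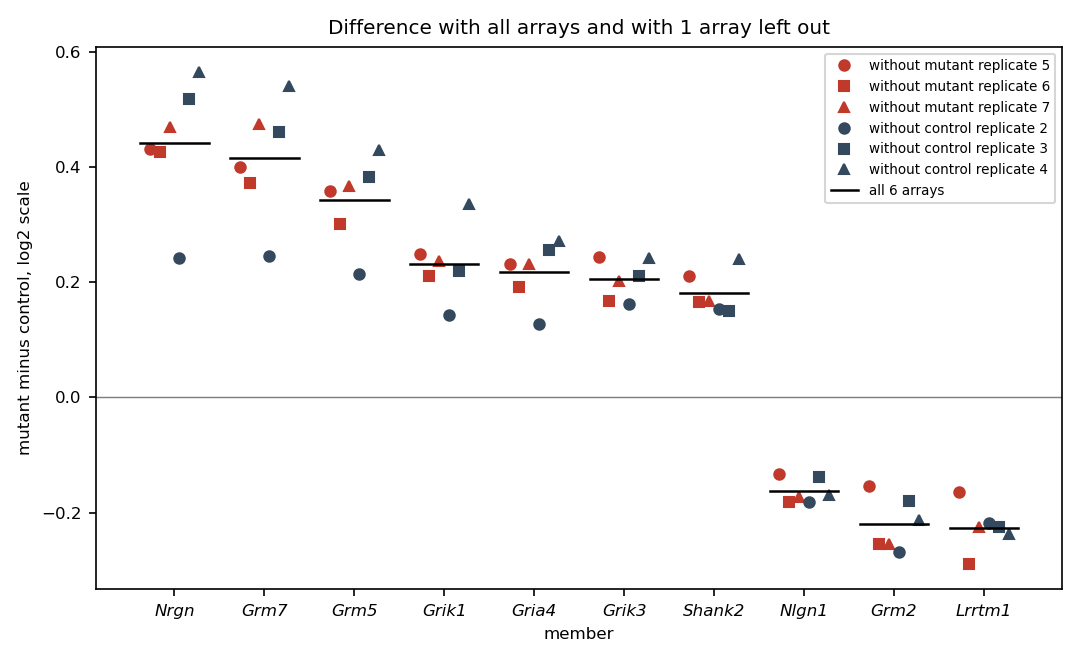
Difference between mutant and control means on the log2 scale (vertical axis) for the 10 members with an unadjusted p under 0.05 (horizontal axis), with all 6 arrays (lines) and without each array in turn (markers). Every difference keeps its sign, and leaving out control 2 brings *Nrgn* from 0.44 to 0.24.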

How the data were processed

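The authors deposited 1 log2 expression value per array and transcript cluster, made in Partek (version 6.12.0712, per the submitters' processing notes); the summarization and normalization are not given in the sources used here. Of 41345 rows, 23521 had a single gene symbol in the platform annotation, 1820 several and 16004 none here. Only the first were used, giving 22180 genes, of which 21994 matched the mouse gene table. Levels are not compared between genes, whose probes differ. Mutant minus control was fitted by limma 3.58.1 in R 4.3.3 (functions lmFit and eBayes), two-sided, without covariates, and adjusted by Benjamini-Hochberg over all genes. An exact test of 3 against 3 cannot go below 0.1. No arrays were duplicates (root mean square difference of pairs 0.170 to 0.218). In 10 simulated sets of 22180 genes, the test found 69.2% of 1.5-fold and 94% of 2-fold changes, with 5.45% false calls. Noise was drawn independently for each gene and array, and every planted change was upward. Deviations shared by many genes of an array were not simulated, so these rates need not hold for the data.

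The members and gene lists were chosen with earlier results of these data known. Values on every array are given for members with an unadjusted p under 0.05 and, in each group, at least the 2 with the smallest p. Of other synapse genes, those with an unadjusted p under 0.05 are named. The alternatives tried were quantile normalization, centring, leaving out dim genes, the mean of a gene's rows, testing every row, array weights, no moderation, a robust prior that follows intensity, and leaving out each array. Figures were drawn with matplotlib 3.10.9.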

Additional observations from a re-analysis of the deposited data

How the results depend on the processing

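No member passed an adjusted p of 0.05 in limma under any of the 14 alternatives, the lowest being 0.237 for *Grik3*, and 25 of 41 members kept the sign of their difference in all of them. Over all genes, 1 call became 9 without dim genes, 27 with an intensity trend and 0 without moderation. The 7 higher members at an unadjusted p under 0.05 became 4 with centring (9.76%, beside 2.72% of all genes). They became 13 with an intensity trend (31.7%, beside 3.99%) and 4 without moderation (9.76%, beside 3.33%). On leaving out 1 array they ran from 0 without mutant 6 (beside 3.34%) to 9 without control 4 (22%, beside 3.46%). There were 4 without mutant 5 (9.76%, beside 3.58%), 4 without mutant 7 (9.76%, beside 2.96%) and 3 without control 2 (7.32%, beside 3.3%). The 3 lower ones became 1 (2.44%) without mutant 5, control 3 or control 4, beside 3.91%, 3.11% and 3.02% of all genes. Their highest count was 4 (9.76%), reached among others without mutant 6, beside 4.15% of all genes. The 13 higher members without overlap became 8 with centring and 13 to 19 on leaving out 1 array, with 19 without mutant 5. The 3 lower ones became 3 to 5 on leaving out 1 array, with 5 without mutant 6. Shares of all genes without overlap are not given for these settings. Smaller groups overlap less often for any gene, so counts with 1 array left out cannot be set against those with all arrays. The median of metabotropic receptors became 0.19 without dim genes, which removes *Grm8*.

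The sign turned with centring for *Gria2* (-0.0061), *Cacng2* (-0.0009), *Dlg4* (-0.0046), *Nlgn2* (-0.0017) and *Camk2b* (-0.0048), with quantile normalization for *Gria2* (-0.0154) and with the mean of rows for *Cacng2* (-0.0101). Leaving out 1 array turned the sign of 16 members, none of which differed by more than 0.13 with all arrays. Their differences ran from -0.0201 to 0.0247 for *Gria2*, -0.0632 to 0.0040 for *Gria3*, -0.0616 to 0.0527 for *Cacng2*, -0.0138 to 0.21 for *Grin3a*, -0.0004 to 0.0904 for *Grik5*, -0.0937 to 0.0533 for *Grm8*, -0.0174 to 0.10 for *Dlg2*, -0.0242 to 0.0885 for *Dlg3*, -0.0299 to 0.0538 for *Dlg4*, -0.0065 to 0.0775 for *Dlgap1*, -0.0076 to 0.0893 for *Dlgap4*, -0.0259 to 0.0542 for *Homer1*, -0.0122 to 0.0921 for *Homer2*, -0.0200 to 0.0522 for *Nlgn2*, -0.0660 to 0.16 for *Camk2a*, -0.0183 to 0.0333 for *Camk2b*. The causes were not tested. No paired analysis was possible because there is no record here of which embryo belonged to which litter. With 3 arrays a group, their number limits the precision.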
